A study of Mus musculus with 4 samples.

Results

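Solute carriers are membrane proteins that move amino acids, sugars, metals, ions, vitamins, nucleosides and metabolic intermediates across the plasma membrane or the membranes of organelles. Brain endothelial cells form the blood-brain barrier with tight junctions that seal the space between them, so small polar molecules reach the brain largely through such carriers. The best-known barrier nutrient carriers (Slc2a1, Slc7a5, Slc3a2, Slc16a1, Slc7a1, Slc38a5, Slc22a8) and the glutamate carriers Slc1a2 and Slc1a3 were set aside here, and the genes described are the other solute carriers. They were chosen by their measured counts: a symbol beginning with Slc and a number, and at least 10 counts in each of the 4 libraries. The tables hold 287 genes with such a symbol. Of these, 195 were members, 83 fell below the count limit and 9 were left out by name. The 195 members belong to 43 families, 194 of them are annotated as protein coding, and 1, Slc2a4rg-ps, is a pseudogene. All 195 passed the edgeR filter on low counts, as the rule nearly ensures.

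The libraries were made from total RNA of brain endothelial cells of C57BL/6 mice at postnatal day 0, with 2 libraries per genotype. Pd1fl/fl mice carry Pd1 alleles flanked by loxP sites and served as the control, and Pd1cKO-Tie2 mice carry the same floxed alleles together with a Tie2-Cre transgene. Tie2-Cre acts in endothelial cells and also in cells of the blood lineage. The cells were purified by flow cytometry with antibodies against CD31, an endothelial surface protein, and CD45, a leukocyte surface protein. The number of mice in a library is not given in the sources used here, so the p-values measure only the spread between these libraries, which may be technical. The second Pd1cKO-Tie2 library is known by its genotype alone, because its column number matches no sample label.

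The sums of the listed counts were 14358748 and 13714374 in Pd1fl/fl replicates 1 and 2, and 24146115 and 14155871 in Pd1cKO-Tie2 replicates 1 and 2. The targeted gene Pdcd1 was counted 32 times in Pd1fl/fl replicate 1 but 0 times in each of the other 3 libraries, among them the other control, so it does not check the labels. The limit that a count of 0 allows is 3 counts, or 0.126 to 0.220 CPM (counts scaled to library size) here. Where no table lists a gene for a library, its count was taken as 0, and as many as 4 counts may stand behind such a 0. The 12 endothelial markers summed to 11815 and 10837 CPM in Pd1fl/fl and to 14065 and 14995 CPM in Pd1cKO-Tie2, and all 12 were higher in both Pd1cKO-Tie2 libraries than in both controls. Markers of some other cells moved with genotype too. The 10 astroglial and radial glial markers summed to 1208 and 1167 CPM in Pd1fl/fl and to 866 and 732 CPM in Pd1cKO-Tie2. Of these 10, 7 were lower in both Pd1cKO-Tie2 libraries than in both controls, and 1, Vim, had a higher mean in Pd1cKO-Tie2. The 8 microglia and macrophage markers summed to 1901 and 2389 CPM in Pd1fl/fl and to 737 and 1646 CPM in Pd1cKO-Tie2. Of these 8, 6 were lower in both Pd1cKO-Tie2 libraries than in both controls. The 7 neutrophil markers reached 908 CPM in Pd1fl/fl replicate 1 and between 1.17 and 55.4 CPM in the other libraries. In bulk libraries such as these, fewer cells of a type and less RNA per cell cannot be told apart.

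The question asked of the carriers was whether their levels differed between Pd1cKO-Tie2 and Pd1fl/fl cells. Of the 195 members, 5 fell and 0 rose by the criterion of the study's methods, a fold change of at least 2 with a p of 0.05 or less, taken here as unadjusted (edgeR quasi-likelihood test). The 5 were the monocarboxylate carriers Slc16a7 and Slc16a3, the sulfate carrier Slc26a11, the magnesium carrier Slc41a3 and the acetyl-CoA carrier Slc33a1. They are 2.56% of the members. Among all 15909 tested genes, 4.02% passed the criterion in either direction and 2.61% passed it downward. Among the 12777 tested genes that also hold at least 10 counts in every library, 2.39% passed it in either direction and 1.63% downward. The members' share therefore lay near that of other genes with the same count limit. The share of genes with an adjusted p under 0.05 was 0% among all tested genes, and no member passed (smallest Benjamini-Hochberg adjusted p 0.735). At an unadjusted p under 0.05 there were 11 of the 195 members, 4 higher and 7 lower in Pd1cKO-Tie2. That limit was met by 1016 of the 15909 tested genes and by 682 of the 12777 with at least 10 counts in every library. DESeq2 gave 1 member an adjusted p under 0.05, the scaffold gene Slc9a3r2, beside 107 of the 15909 genes, and limma-voom gave 0 members.

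Over the 195 members the median log2 fold change was -0.0069, with quartiles at -0.38 and 0.27 and a range from -1.81 to 1.17. A positive value was found for 97 members. The median was -0.0038 over all tested genes and 0.0061 over those with at least 10 counts in every library. A fold change to 0.5 or less was estimated for 14 members and one of 2 or more for 1, Slc4a2, a chloride and bicarbonate exchanger. The Pd1cKO-Tie2 libraries were both above both controls for 44 members and both below for 39, which is 42.6% of the members. The 2 genotypes did not overlap in 35.8% of all tested genes and in 36.6% of those with at least 10 counts in every library. The members together held 1.75% and 1.76% of the counts in the Pd1fl/fl libraries, and 1.86% and 1.90% in the Pd1cKO-Tie2 libraries.

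The sequences upstream of 4 of the genes with an unadjusted p under 0.05 are shown because these genes passed the criterion or stood nearest to passing the adjusted test. Slc16a3, Slc33a1 and Slc41a3 fell, Slc9a3r2 had the smallest p of the members, and Slc16a7 and Slc26a11 are named only. Each is the 250 bases before a RefSeq gene start in GRCm38.p6, written 5′ to 3′ on the gene's strand. The windows are chr11:120948817-120949066 (plus strand) for Slc16a3, chr3:63964734-63964983 (minus strand) for Slc33a1, chr6:90618996-90619245 (plus strand) for Slc41a3 and chr17:24650306-24650555 (minus strand) for Slc9a3r2. The RefSeq start of Slc41a3 lies 14521 bases inside the gene as the deposited tables place it, that of Slc16a3 lies 587 bases inside and that of Slc33a1 35 bases inside, so these 3 windows hold bases of the gene. Capitals mark ACGTG or GGGCGG on either strand. ACGTG is the core of the hypoxia response element and is also contained in the E-box CACGTG, which counts on both strands, and GGGCGG is the GC box.
Slc16a3: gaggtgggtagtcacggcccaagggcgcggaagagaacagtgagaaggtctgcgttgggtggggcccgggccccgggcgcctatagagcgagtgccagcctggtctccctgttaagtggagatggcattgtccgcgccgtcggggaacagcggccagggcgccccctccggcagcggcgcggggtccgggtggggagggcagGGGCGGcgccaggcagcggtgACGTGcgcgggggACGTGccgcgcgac
Slc33a1: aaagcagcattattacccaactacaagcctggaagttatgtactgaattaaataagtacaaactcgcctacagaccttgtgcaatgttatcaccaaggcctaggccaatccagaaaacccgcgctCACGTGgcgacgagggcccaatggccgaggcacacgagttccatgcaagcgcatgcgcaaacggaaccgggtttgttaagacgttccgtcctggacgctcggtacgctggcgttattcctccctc
Slc41a3: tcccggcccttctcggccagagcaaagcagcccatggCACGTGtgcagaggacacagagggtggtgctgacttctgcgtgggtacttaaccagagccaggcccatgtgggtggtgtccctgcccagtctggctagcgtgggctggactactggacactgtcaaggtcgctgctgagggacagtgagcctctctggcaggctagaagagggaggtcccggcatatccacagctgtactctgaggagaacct
Slc9a3r2: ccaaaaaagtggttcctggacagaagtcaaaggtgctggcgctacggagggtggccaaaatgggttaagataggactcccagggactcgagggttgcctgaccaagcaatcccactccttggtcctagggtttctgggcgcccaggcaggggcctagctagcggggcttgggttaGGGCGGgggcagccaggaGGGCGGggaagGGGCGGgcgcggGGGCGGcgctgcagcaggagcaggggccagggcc
The Slc16a3 window holds 2 matches of ACGTG and 1 of GGGCGG. In the Slc33a1 and Slc41a3 windows, a single CACGTG gives 2 matches of ACGTG in each, and GGGCGG has 0. The Slc9a3r2 window holds 4 matches of GGGCGG and 0 of ACGTG. The window of Slc39a8 was read too and is not shown, and it holds 0 matches of either. For comparison, 145 members had 190 windows, of which 21.1% held ACGTG and 64.7% held GGGCGG. Over all 32851 windows the shares were 16.6% and 32.7%, and over the 11852 windows of protein-coding genes with at least 10 counts in every library they were 21.2% and 57.6%. The members' share with ACGTG was close to that of other expressed coding genes.

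The 5 members past the criterion had low to middling levels. Slc16a7 (MCT2, a carrier of lactate, pyruvate and ketone bodies; chr10:125219270-125389465, minus strand) was counted 105 and 173 times in the Pd1fl/fl libraries against 70 and 37 times in the Pd1cKO-Tie2 libraries. These are 7.28 and 12.2 CPM against 2.93 and 2.71 CPM after TMM scaling, the edgeR scaling used for each level given here. The log2 fold change was -1.78 ± 0.68 (SE, adjusted p = 0.753). Both Pd1cKO-Tie2 libraries lay below both controls, and the deepest library had the second-lowest count of the gene. An antisense gene, Gm47862, shares 179 exon bases with Slc16a7, and without strand-specific counting their reads cannot be told apart.

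Slc16a3 (MCT4, a carrier best known for lactate export; chr11:120948480-120960868, plus strand) measured 20.3 and 19.3 CPM in Pd1fl/fl and 9.88 and 7.11 CPM in Pd1cKO-Tie2. Its log2 fold change was -1.22 ± 0.42 (SE, adjusted p = 0.738). The controls differed by a ratio of 1.05 and the Pd1cKO-Tie2 libraries by 1.39, so the spread within a genotype was smaller than the difference between genotypes. Another member of the Slc16 family, Slc16a13, measured 16.0 and 29.5 CPM in Pd1fl/fl and 44.4 and 37.0 CPM in Pd1cKO-Tie2.

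Slc26a11 (a sulfate and anion carrier; chr11:119355557-119381079, plus strand) measured 13.9 and 12.5 CPM in Pd1fl/fl and 3.98 and 4.76 CPM in Pd1cKO-Tie2, a log2 fold change of -1.60 ± 0.53 (SE, adjusted p = 0.735). Slc33a1 (which carries acetyl-CoA into the endoplasmic reticulum; chr3:63933507-63964768, minus strand) measured 24.7 and 25.7 CPM in Pd1fl/fl and 10.8 and 11.8 CPM in Pd1cKO-Tie2, a log2 fold change of -1.16 ± 0.35 (SE, adjusted p = 0.735). It shares 1136 exon bases with the antisense gene Gm26850. For both genes the 2 libraries of a genotype lay close together and the genotypes stood well apart. Slc41a3 (a magnesium carrier; chr6:90604725-90646412, plus strand) was more scattered, at 26.9 and 18.9 CPM in Pd1fl/fl and 12.1 and 8.28 CPM in Pd1cKO-Tie2, with a log2 fold change of -1.17 ± 0.42 (SE, adjusted p = 0.753).

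These calls rest on few libraries. Without Pd1fl/fl replicate 1, 10 members passed the criterion, and without Pd1cKO-Tie2 replicate 2, 8 did. Slc16a3, Slc16a7, Slc26a11 and Slc33a1 each lost the call in 3 of the 4 fits that leave out 1 library, and Slc41a3 in 2 of them, with p between 0.0506 and 0.227 there. With all genes of at least 1 count in the fit, Slc16a7 also lost the call. Most markers of astroglia and microglia moved in the same direction as these 5 members, and all 7 tested mural markers had negative log2 fold changes. The part of these cells in the 5 differences was not tested.

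**Figure D1:**
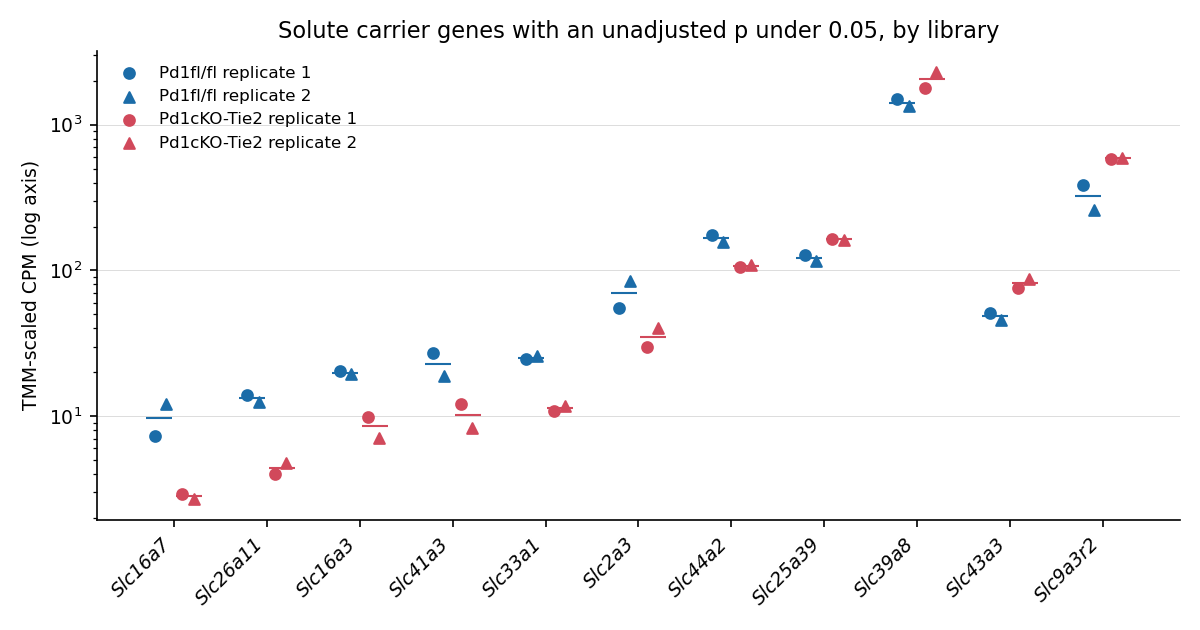
TMM-scaled CPM (log axis) of the 11 solute carrier genes with an unadjusted p under 0.05, one point per library, blue for Pd1fl/fl and red for Pd1cKO-Tie2, with short lines at the genotype means. The points of Slc16a7 span 2.71 to 12.2 CPM and those of Slc39a8 1348 to 2296 CPM, and in each of the 11 genes the 2 colours do not overlap.

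Another 6 members had an unadjusted p under 0.05 without reaching a fold change of 2. Slc2a3 (GLUT3, the glucose carrier best known from neurons) was at 55.4 and 84.4 CPM in Pd1fl/fl and 29.9 and 40.1 CPM in Pd1cKO-Tie2, at a fold change of 0.5001 just outside the criterion (adjusted p = 0.735). Slc44a2, a choline carrier, was at 174 and 157 CPM against 106 and 108 CPM, a log2 fold change of -0.63 ± 0.17 (SE, adjusted p = 0.735). The other 4 were higher in Pd1cKO-Tie2, and each had both Pd1cKO-Tie2 libraries above both controls.

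Slc9a3r2 encodes NHERF2, a PDZ scaffold that binds ion exchangers and other membrane proteins and is not itself a carrier. It measured 383 and 261 CPM in Pd1fl/fl and 586 and 587 CPM in Pd1cKO-Tie2. Its log2 fold change was 0.86 ± 0.21 (SE), with an adjusted p of 0.735 in edgeR and 0.0056 in DESeq2. The 2 Pd1cKO-Tie2 libraries were nearly equal, and the 2 controls differed by a ratio of 1.47. Its relative Slc9a3r1 (NHERF1) measured 108 and 107 CPM against 95.1 and 63.9 CPM, on the other side of 0.

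Slc39a8, the zinc, manganese and iron importer ZIP8, measured 1490 and 1348 CPM in Pd1fl/fl and 1797 and 2296 CPM in Pd1cKO-Tie2, a log2 fold change of 0.53 ± 0.15 (SE, adjusted p = 0.735 in edgeR and adjusted p = 0.063 in DESeq2). Slc43a3, a purine nucleobase carrier, measured 51.2 and 45.5 CPM against 75.7 and 87.0 CPM, a log2 fold change of 0.75 ± 0.23 (SE, adjusted p = 0.735). Slc25a39, which brings glutathione into mitochondria, measured 127 and 116 CPM against 165 and 163 CPM, a log2 fold change of 0.44 ± 0.17 (SE, adjusted p = 0.753). The 12 endothelial markers had a median log2 fold change of 0.36 and a range from 0.21 to 0.67, so the values of Slc39a8 and Slc25a39 lay inside the range of those markers and those of Slc9a3r2 and Slc43a3 lay above it.

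The levels of the members, as mean CPM per kilobase of exon, spanned 2519-fold. The highest was Slc1a4 (ASCT1, a carrier of serine, alanine and other neutral amino acids) at 672 CPM per kb. It measured 2464 and 2417 CPM in Pd1fl/fl and 2820 and 2845 CPM in Pd1cKO-Tie2, a log2 fold change of 0.21 ± 0.09 (SE, adjusted p = 0.807). The libraries of a genotype differed by a ratio of 1.02 in Pd1fl/fl and 1.01 in Pd1cKO-Tie2, and the SE was the smallest among the 10 highest levels.

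Metal carriers followed. Slc39a8 stood at 226 CPM per kb and the zinc importer Slc39a10 at 218 CPM per kb, with 1240 and 1282 CPM in Pd1fl/fl against 1302 and 1487 CPM in Pd1cKO-Tie2. The copper importer Slc31a1 (184 CPM per kb) measured 822 and 655 CPM against 769 and 901 CPM, and the genotypes overlapped. The iron exporter ferroportin, Slc40a1 (159 CPM per kb), measured 1332 and 1427 CPM against 1549 and 1401 CPM, again with overlap. Of the 10 highest levels, only Slc9a3r2 (172 CPM per kb) and Slc39a8 had an unadjusted p under 0.05.

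The other 4 of the 10 highest were the nucleoside carrier Slc29a1 (113 CPM per kb), the glutamine carrier Slc38a3 (101 CPM per kb), the neutral amino acid carrier Slc7a8 (88.5 CPM per kb) and the lysosomal carrier Slc46a3 (88.0 CPM per kb). Slc29a1 measured 458 and 359 CPM in Pd1fl/fl and 496 CPM in each Pd1cKO-Tie2 library. Slc46a3 measured 193 and 203 CPM against 225 and 244 CPM. All 4 had Pd1cKO-Tie2 libraries above both controls, by log2 fold changes between 0.18 and 0.28, and unadjusted p-values between 0.141 and 0.260.

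**Figure D2:**
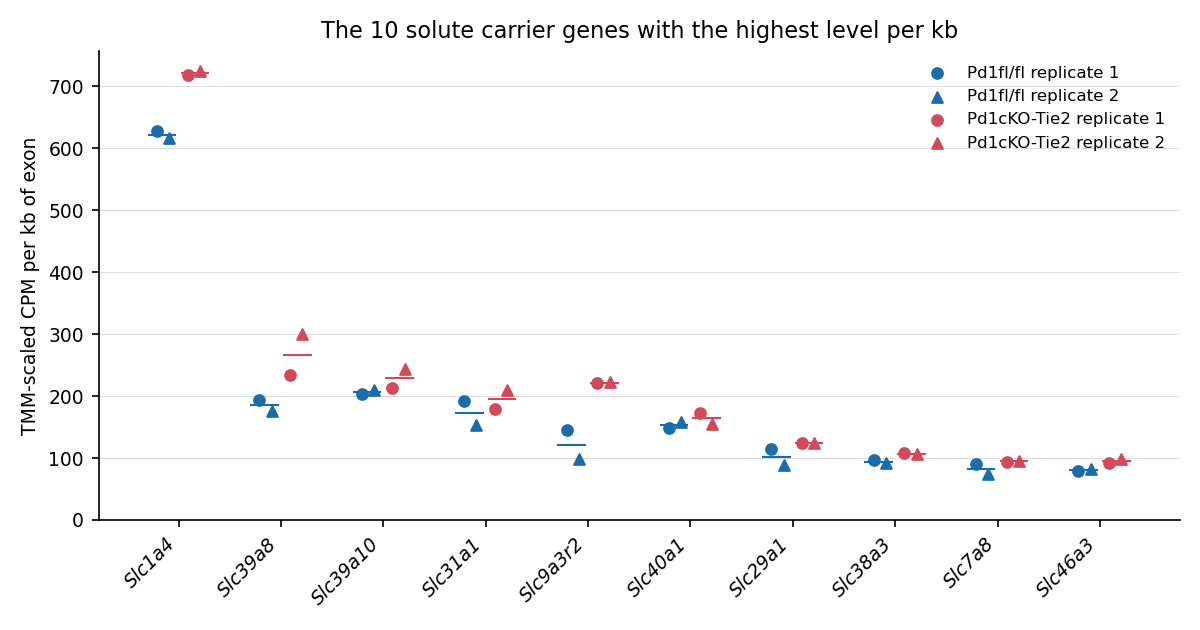
TMM-scaled CPM per kilobase of exon in each library for the 10 members with the highest level, blue for Pd1fl/fl and red for Pd1cKO-Tie2, with short lines at the genotype means. Slc1a4, at 672 CPM per kb on average, stands far above Slc39a8 at 226, and the genotypes overlap for Slc31a1 and Slc40a1 but not for the other 8.

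The direction of the difference went with the level. Of the 28 members with a mean of at least 100 CPM, 22 had a positive log2 fold change, and the median was 0.18. In 14 of them both Pd1cKO-Tie2 libraries were above both controls and in 4 both were below. Over the 2140 genes of that level with at least 10 counts in every library, the median was 0.09 and 1384 were positive. The genotypes did not overlap in 64.3% of these members and in 40.9% of those genes. The 125 members between 10 and 100 CPM had a median of 0.04, against a median of 0.0018 over 7295 genes. Without overlap, 25 of them were higher and 23 lower, or 38.4%, beside 36.3% of those genes.

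The 42 members under 10 CPM had a median of -0.38, and 11 were positive. Both Pd1cKO-Tie2 libraries were below both controls in 12 and above in 5, or 40.5% without overlap. The 3342 genes of that level with the same count limit had a median of -0.13, and 1430 of them were positive. Of those genes 699 were lower and 456 higher without overlap (34.6%), so those genes leaned downward too. The endothelial markers were higher and most astroglial and microglial markers lower in Pd1cKO-Tie2, and the part of cell make-up in this pattern was not tested.

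**Figure D3:**
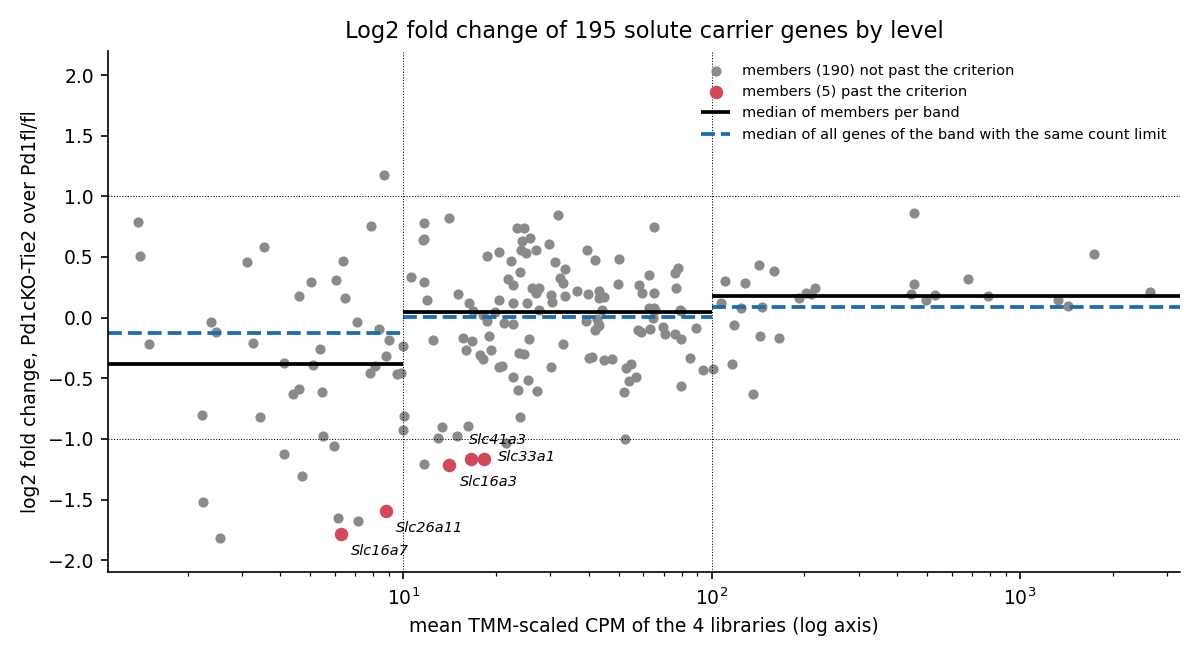
Log2 fold change of Pd1cKO-Tie2 over Pd1fl/fl for the 195 members against their mean TMM-scaled CPM (log axis), with the 5 members past the criterion in red. The black lines mark the members' medians of -0.38, 0.04 and 0.18 in the 3 bands of level, and the dashed lines the medians of -0.13, 0.0018 and 0.09 over all genes with at least 10 counts in every library.

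The 29 members that carry amino acids and neurotransmitters had a median log2 fold change of -0.09, and their levels summed to 5444 and 5231 CPM in Pd1fl/fl and 6026 and 5974 CPM in Pd1cKO-Tie2. The sum was higher in Pd1cKO-Tie2 while the median was just below 0, since Slc1a4, Slc38a3, Slc7a8, the taurine carrier Slc6a6 and the glutamine carrier Slc38a2 make up most of the sum. Slc6a6 measured 657 and 547 CPM in Pd1fl/fl and 752 and 749 CPM in Pd1cKO-Tie2, and Slc38a2 454 and 489 CPM against 497 and 547 CPM. In 8 of the 29 both Pd1cKO-Tie2 libraries were higher and in 6 both were lower. That is 48.3% without overlap, beside 36.6% of genes with the same count limit, and this difference in share was not tested. The smallest p was that of Slc6a4, the serotonin carrier, at 13.5 and 8.31 CPM against 2.22 and 4.61 CPM (log2 fold change -1.68 ± 0.70 SE, adjusted p = 0.806).

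The 23 carriers of metals and heme had a median of 0.12 and a sum of 5662 and 5535 CPM in Pd1fl/fl against 6187 and 6876 CPM in Pd1cKO-Tie2. The zinc and manganese importers of the Slc39 family numbered 9, with a median of 0.15 and 3 higher and 1 lower without overlap. The 6 members of the Slc30 family, which export zinc or, in the case of Slc30a10, manganese, had a median of 0.29, with 2 higher and 0 lower. Over the 23 carriers, the genotypes did not overlap in 43.5%, beside 36.6% of genes with the same count limit. The 2 magnesium carriers Slc41a1 and Slc41a3 were both lower, Slc41a1 at 74.9 and 50.7 CPM against 34.0 and 48.3 CPM.

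Of a list of 10 iron and heme carriers, 9 are members. None of the 10 passed the criterion, 2 had an unadjusted p under 0.05 (Slc39a8 and Slc25a39), 3 were positive, and the median log2 fold change was -0.16. Ferroportin had the highest level per kb of the list after Slc39a8. Slc11a1, the iron and manganese carrier of macrophage phagosomes, measured 21.2 and 36.6 CPM in Pd1fl/fl and 7.95 and 20.4 CPM in Pd1cKO-Tie2, with adjusted p = 0.908. Slc11a2 (DMT1), a close relative with broad expression, measured 45.1 and 42.9 CPM against 41.2 and 43.1 CPM.

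The 38 mitochondrial carriers, the largest class, had a median of -0.05 and summed to 1952 and 1792 CPM in Pd1fl/fl and 1835 and 1906 CPM in Pd1cKO-Tie2. The genotypes did not overlap in 11 of them (28.9%), 5 higher and 6 lower, beside 36.6% of genes with the same count limit. The ADP/ATP carriers Slc25a5 and Slc25a4 had the highest levels of the class, at 87.2 and 81.5 CPM per kb. Slc25a5 measured 152 and 150 CPM against 111 and 161 CPM, and Slc25a4 measured 206 and 156 CPM against 211 and 194 CPM. Of the 9 listed carriers of ADP/ATP, phosphate and respiratory substrates, 0 had an unadjusted p under 0.05 and their log2 fold changes lay between -0.40 and 0.20.

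The class of nucleotide sugars and acetyl-CoA held 22 members, Slc33a1 and the 21 of the Slc35 family. It takes in that whole family, so it also holds the orphan carrier Slc35g2, and not each member is a known nucleotide sugar carrier. The median was 0.06, with 5 higher and 4 lower without overlap. That is 40.9% of the class, beside 36.6% of genes with the same count limit. Slc33a1 was the only one of the 22 past the criterion. The highest levels were those of Slc35f2 (98.2 and 133 CPM against 129 and 153 CPM) and Slc35a4 (101 and 96.4 CPM against 104 and 139 CPM). Slc35c1, which carries GDP-fucose into the Golgi, measured 33.9 and 27.2 CPM against 14.9 and 19.8 CPM, with adjusted p = 0.803.

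The 23 carriers of inorganic ions and protons had a median of 0.06 and 4 higher and 4 lower without overlap. That is 34.8% of the class, beside 36.6% of genes with the same count limit. Slc12a9 had the highest level per kb of the class, at 47.5 and 43.4 CPM against 29.8 and 42.9 CPM, and the endosomal sodium-proton exchanger Slc9a9 the second highest, at 39.4 and 39.7 CPM against 35.7 and 42.0 CPM. Slc4a2 measured 6.17 and 4.44 CPM against 9.08 and 14.9 CPM (log2 fold change 1.17 ± 0.58 SE, adjusted p = 0.876), the largest estimate upward among the members. It shares 1141 exon bases with Fastk on the other strand.

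Vitamin, choline and cofactor carriers numbered 13, and their median was 0.08. In 7 of the 13 both Pd1cKO-Tie2 libraries were above both controls and in 2 both were below, so the genotypes did not overlap in 69.2%, beside 36.6% of all genes with the same count limit, and this difference in share was not tested. The 7 were Slc46a3, the riboflavin carriers Slc52a3 and Slc52a2, the vitamin C carrier Slc23a2, the biotin and pantothenate carrier Slc5a6, and the choline carrier-like genes Slc44a1 and Slc44a5. Their log2 fold changes lay between 0.08 and 0.55, and each had a p above 0.05. Slc23a2 measured 133 and 144 CPM against 147 and 215 CPM, and Slc52a3 measured 51.2 and 59.0 CPM against 65.0 and 62.1 CPM. The 2 lower ones were Slc44a2 and Slc23a1, the other vitamin C carrier, at 3.19 and 4.72 CPM against 0.712 and 1.54 CPM.

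The 14 carriers of carboxylates, fatty acids and bile acids had a median of -0.06 and held 2 of the 5 members past the criterion, Slc16a3 and Slc16a7. The orphan carrier Slc16a4, at 27.7 CPM per kb, measured 97.1 and 109 CPM against 99.4 and 124 CPM. The sums of the class were 588 and 582 CPM in Pd1fl/fl and 622 and 638 CPM in Pd1cKO-Tie2.

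The 11 sugar and polyol carriers had a median of 0.15, with 2 higher and 1 lower without overlap. That is 27.3% of the class, beside 36.6% of genes with the same count limit. Slc50a1, the sugar carrier of the SWEET family, measured 18.2 and 20.7 CPM against 19.9 and 23.2 CPM, and the intracellular glucose carrier Slc2a8 measured 33.4 and 23.9 CPM against 38.3 and 33.7 CPM. Slc2a3 was the one that was lower. The 4 nucleoside and nucleobase carriers, Slc29a1, Slc43a3, Slc29a4 and Slc29a3, had a median of 0.23.

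The 6 carriers of organic ions and drugs had a median of -0.35. Among them the lysosomal sialic acid carrier Slc17a5 measured 61.2 and 72.1 CPM against 43.7 and 51.4 CPM, and the carnitine carrier Slc22a5 measured 35.2 and 35.8 CPM against 26.5 and 34.7 CPM. The 4 carriers of peptides and urea had a median of -0.77, and Slc15a3, a lysosomal carrier of histidine and peptides known from macrophages, measured 9.99 and 8.74 CPM against 3.60 and 2.34 CPM (adjusted p = 0.781). It shares 1541 exon bases with Tmem132a on the other strand. The related Slc15a4 measured 16.1 and 31.8 CPM against 29.2 and 27.5 CPM, and the peptide carrier Slc15a2 measured 22.2 and 30.9 CPM against 12.8 and 25.1 CPM. The 3 vesicular carriers had a median of -0.46. The vesicular glutamate carrier Slc17a6 measured 26.4 and 39.5 CPM against 23.9 and 19.3 CPM, and the vesicular monoamine carrier Slc18a2 measured 20.6 and 63.8 CPM against 59.5 and 35.2 CPM.

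The 5 members whose Slc symbol stands for no carrier function had a median of -0.31. They are the scaffolds Slc9a3r1 and Slc9a3r2 and the genes Slc4a1ap, Slc7a6os and Slc2a4rg-ps. Slc9a3r2 makes up most of their sum of 553 and 425 CPM in Pd1fl/fl and 725 and 704 CPM in Pd1cKO-Tie2.

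**Figure D4:**
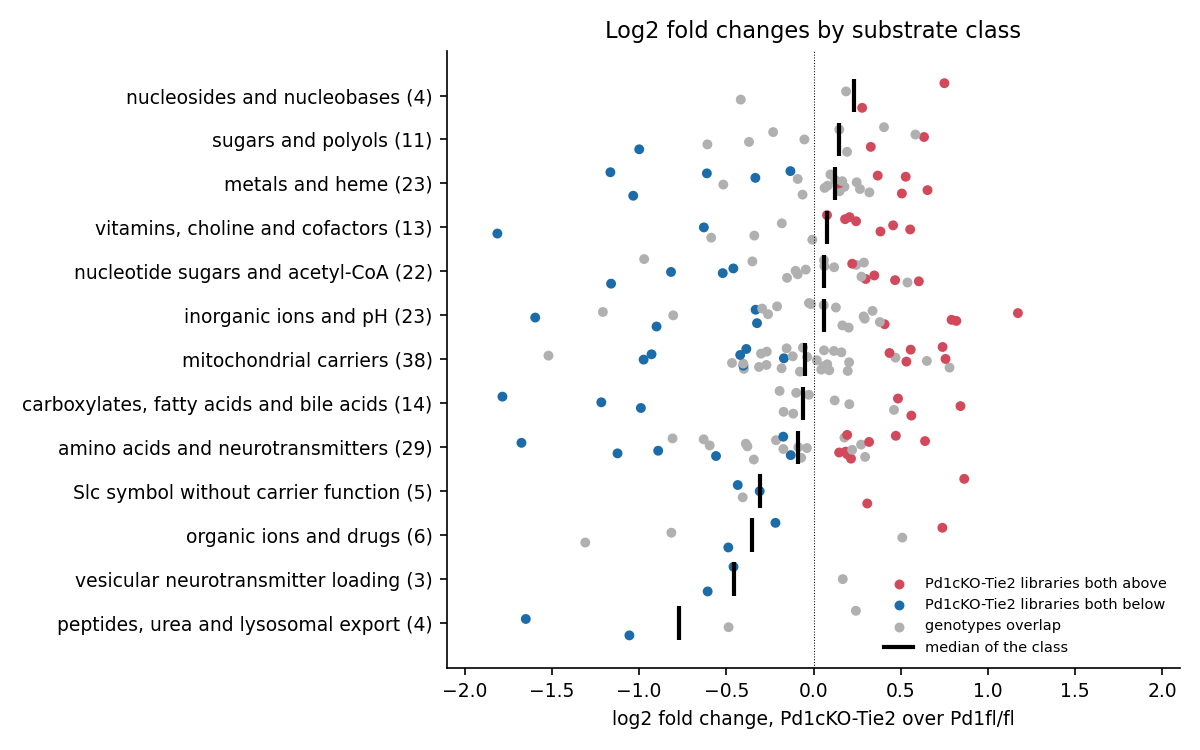
Log2 fold change of Pd1cKO-Tie2 over Pd1fl/fl for each of the 195 members (points) by substrate class, with the number of members in brackets and the class median as a black bar. Red points have both Pd1cKO-Tie2 libraries above both controls (44 members), blue points both below (39 members), and the class medians run from -0.77 for peptides and urea to 0.23 for nucleosides.

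Genes known from a cell type were counted by list. A gene can stand on more than 1 list, as Slc7a11 and Slc6a9 do, so the lists do not hold genes of a single cell type only. Of 14 genes known from brain endothelium (13 carriers and the scaffold gene Slc9a3r2), 13 of them members, 12 were positive with a median of 0.21, and in 8 both Pd1cKO-Tie2 libraries were above both controls and in 1 both were below. That is 64.3% without overlap and 57.1% upward, beside 35.8% and 17.7% of all tested genes. The median level of the list was 328 CPM. Of all tested genes with at least 100 CPM, 40.9% did not overlap and 30.3% went upward. This difference in share was not tested. None of the 14 passed the criterion, and 2 had an unadjusted p under 0.05. Besides Slc39a8 and Slc9a3r2 the list holds Slc39a10, Slc40a1, Slc38a3 and Slc6a6. The median of the list lay close to the 0.18 of all members with at least 100 CPM and below the 0.36 of the endothelial markers. The thiamine carrier Slc19a3, from the same list, measured 57.8 and 48.7 CPM in Pd1fl/fl and 49.5 and 34.6 CPM in Pd1cKO-Tie2.

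The lists of other cell types had medians below 0. Of 11 neuronal carriers in the tables, 4 were positive (median -0.34), and 1, Slc2a3, had an unadjusted p under 0.05. The neuronal markers themselves had a median of -0.02, with 5 of 10 positive. The 10 carriers of astroglia and radial glia had a median of -0.44, with 3 positive and 0 at an unadjusted p under 0.05. Among them the GABA carrier Slc6a11 measured 35.2 and 21.8 CPM against 28.7 and 8.86 CPM. The 8 tested carriers of myeloid cells had a median of -0.20, with 3 positive, against -0.86 for the microglia and macrophage markers. Without overlap, 3 of these carriers were higher (Slc7a7, Slc7a8 and Slc46a3) and 2 were lower. That is 62.5% of the 8, beside 35.8% of all tested genes, and this difference in share was not tested. Slc7a8 and Slc46a3 were also among the 10 members with the highest levels. The 7 carriers of erythroid cells had a median of -0.30, with 1 positive, against -0.01 for the erythroid markers. The 5 tested carriers of leptomeningeal, choroid plexus or mural cells had a median of -0.39 and 0 positive. The mural marker Rgs5 was at 4916 and 3220 CPM in Pd1fl/fl and 3259 and 3279 CPM in Pd1cKO-Tie2. The 8 mural markers summed to 5723 and 3738 CPM in Pd1fl/fl and to 3826 and 3819 CPM in Pd1cKO-Tie2. Of the 7 that were tested, 0 were positive (median -0.32), and 3 were lower in both Pd1cKO-Tie2 libraries than in both controls. Of the 8 mural markers, Acta2 of smooth muscle was at 0 in 3 libraries and 0.775 CPM in the other. Of the 8 fibroblast and leptomeningeal markers, Col1a1 was at 0 in 3 libraries and 10.5 CPM in Pd1fl/fl replicate 1, while Igf2 was between 76.9 and 119 CPM. The part of these cells in the values of the carriers was not tested.

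The 9 carriers left out by name had a median of 0.34, with 7 positive and 0 past the criterion. An unadjusted p under 0.05 was found for 6, of which 5 were higher and 1 lower. The lower one was Slc1a3, with a log2 fold change of -0.79 and an adjusted p of 0.735 in edgeR and 0.0029 in DESeq2. Of the 10 carriers known as targets of the stress factor Atf4, 5 are members. Those 5 had log2 fold changes of 0.21 (Slc1a4), 0.15 (Slc38a2), -0.07 (Slc1a5), -0.04 (Slc43a1) and -0.63 (Slc7a11), and the list as a whole had 6 positive, 0 past the criterion and a median of 0.18. The 7 organic anion carriers of the Slco family had a median of 0.26 and 0 past the criterion. The 21 carriers without an Slc symbol had a median of -0.12 and 0 past the criterion. The 8 chaperones and partners had a median of -0.37, although basigin (Bsg), the chaperone of monocarboxylate carriers, had a log2 fold change of 0.41. The 8 subunits of the sodium pump had a median of -0.03.

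The spread between the libraries of one genotype set what could be seen. The median ratio of the higher to the lower library was 1.27 in Pd1fl/fl and 1.33 in Pd1cKO-Tie2, against 1.30 and 1.30 over all genes with the same count limit. The ratio was within 2 for 167 members in Pd1fl/fl and for 164 in Pd1cKO-Tie2. At 100 CPM or more, all 28 members were within 2 in both genotypes, and the median ratios were 1.10 and 1.11. Under 10 CPM the median ratios were 1.51 and 1.85.

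The widest ratios within Pd1fl/fl were those of the thiamine carrier Slc19a2 (10.1 and 0.986 CPM, from 145 and 14 counts), the aspartate and glutamate carrier of mitochondria Slc25a13 (8.32 and 39.2 CPM) and the ornithine carrier Slc25a15 (14.1 and 3.10 CPM). For the latter pair, the Pd1cKO-Tie2 libraries differed by ratios of 1.12 and 1.10. Within Pd1cKO-Tie2, the widest were Slc7a4 (8.66 and 1.10 CPM), the orphan carrier Slc35g2 (17.8 and 2.42 CPM) and the cationic amino acid carrier Slc7a2 (2.18 and 12.5 CPM). Each of these 6 had overlapping genotypes.

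**Figure D5:**
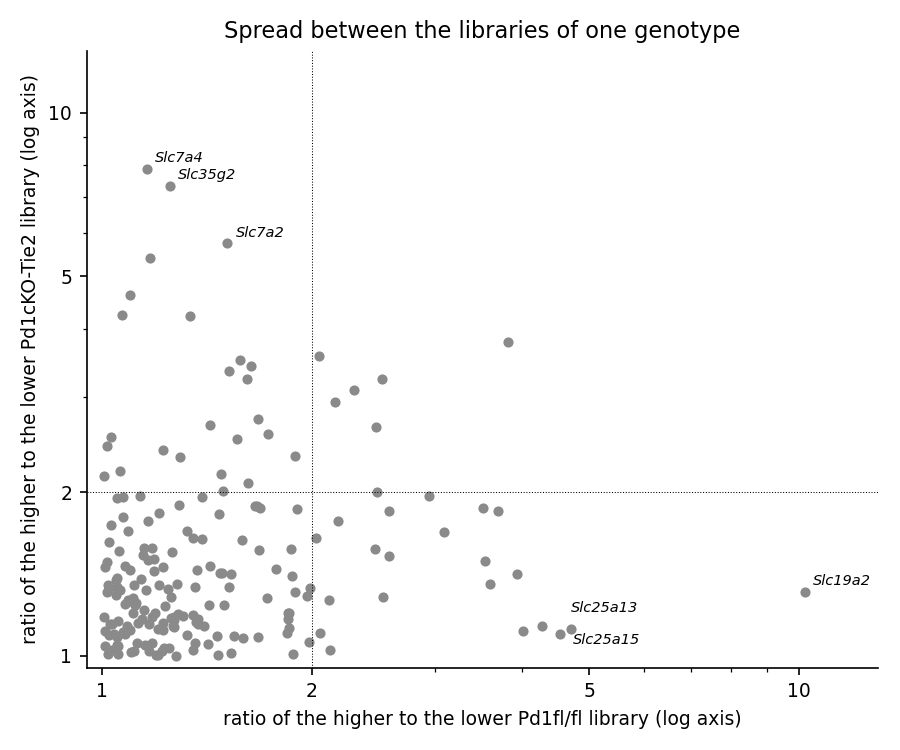
Ratio of the higher to the lower library within Pd1fl/fl (x axis) and within Pd1cKO-Tie2 (y axis), both log axes, one point per member, with dotted lines at a ratio of 2. Most members sit below 2 on both axes, and the 3 widest on each axis are named, up to 10.2 for Slc19a2 and 7.89 for Slc7a4.

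The count limit decided some memberships narrowly. A count of 10 corresponds to between 0.419 and 0.732 CPM in these libraries. Just inside were Slc24a5, with a smallest count of 10, and Slc25a35 and Slc38a11, each with a smallest count of 11. Just outside were Slc2a9, Slc6a17 and Slc6a9, each with a smallest count of 9. Slc6a17 was counted 9 and 140 times in Pd1fl/fl against 58 and 155 times in Pd1cKO-Tie2, so 1 library kept it out.

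A minimum in every library also leaves out a gene that is near 0 in 1 genotype. Of the 83 genes below the limit, 64 had 0 counts in at least 1 library and 43 passed the edgeR filter. By the criterion 1 of the 43 rose, the sugar carrier Slc5a9, and 2 fell, Slc24a1 and the ergothioneine carrier Slc22a4. They are 6.98% of the 43, beside 4.02% of all tested genes and 6.26% of the tested genes with a mean under 10 CPM. The highest mean among the 83 genes was 8.81 CPM. Slc5a9, Slc24a1 and Slc22a4 each passed the filter through the genotype in which they were higher, so these calls are not independent of the filter. The adjusted p of Slc5a9 was 0.0099 in DESeq2. Slc5a9 was counted 0 times in either control against 115 and 76 times in Pd1cKO-Tie2. Slc24a1 was counted 60 and 32 times in Pd1fl/fl against 0 times in either Pd1cKO-Tie2 library, and Slc22a4 24 and 33 times against 2 and 0. The 5 members that fell are thus not the full set of solute carriers past the criterion.

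Members that lie near each other in the genome were listed too. There are 11 pairs of members with less than 100000 bases between them. Slc16a11 and Slc16a13 lie 372 bases apart on chromosome 11, with log2 fold changes of 0.46 and 0.84. Slc25a15 and Slc20a2 on chromosome 8 had 0.78 and 0.82. The genotypes overlapped for Slc16a11 and Slc25a15. Slc43a1 and Slc43a3 on chromosome 2 differed in sign, at -0.04 and 0.75. So did Slc4a1 and Slc25a39, Slc38a1 and Slc38a2, and Slc13a3 and Slc2a10. Exons of 8 members overlap another gene on the same strand and those of 53 a gene on the other strand, and the counts of these members are uncertain to that extent.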

How the data were processed

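Illumina sequencing was run on RNA of sorted brain endothelial cells (2 libraries per genotype). Each of the 4 tables that the authors deposited holds the raw read counts per gene of 1 Pd1cKO-Tie2 and 1 Pd1fl/fl library. A table lists a gene when both libraries hold a count or 1 holds at least 5. The submitters' processing notes name TopHat2 2.0.12, Bowtie2 2.2.3, HTSeq 0.6.0 and the build mm9, without roles. The gene positions in the tables are GRCm38, and 90.0% equal GENCODE M21. Whether strand was used is not given in the sources used here. The tables also hold the authors' CPM, fold changes and p-values per pair, which were not used.

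The deposited counts were joined to 21578 genes, 0 counts differed between tables, genes not listed for a library were set to 0, and 5 broken lines were skipped in each of 2 tables. There was no row of unassigned reads. Genotypes were compared in edgeR 4.0.16 under R 4.3.3 by its quasi-likelihood test, after filterByExpr with the genotype as group, which kept 15909 genes, and after TMM scaling, without covariates. The criterion of a fold change of at least 2 and p of 0.05 or less is that of the study's methods, with the p taken as unadjusted, and p-values were adjusted by the Benjamini-Hochberg method over every gene tested. The common dispersion corresponded to a biological coefficient of variation of 0.610. Alternatives used DESeq2 1.42.0, limma 3.58.1 (voom), RLE or library size scaling, other filters, other count limits for members, and each library left out. Promoter windows were read with Python 3.11.15. In simulated counts, 77.6% of 196 genes changed 4-fold passed the criterion and 44.4% had an adjusted p under 0.05, and 2.95% of the unchanged genes passed the criterion (14761 genes run). The changed genes were drawn only from those above a set mean count, and no member had an estimated change of 4-fold. These shares therefore do not measure the detection of changes as small as those of the members.

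The members, classes, cell type markers and gene lists were chosen with earlier results of these data known. Genes named are members past the criterion, in each class the 2 highest levels per kb and the smallest p, the 10 highest levels, the 3 widest ratios within each genotype, the 3 genes on each side of the count limit, and examples of the lists. Slc4a2, Slc6a6, Slc38a2, Slc16a13, Slc23a1, Slc23a2, Slc35c1, Slc41a1, the pairs of neighbouring genes and the 7 vitamin and choline carriers were named after their values were seen. Results for some members are not reported here.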

Additional observations from a re-analysis of the deposited data

How the results depend on the processing

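Of 480 values for 48 named genes under 10 alternatives, 434 kept direction and side of the threshold, 19 came to pass it, 15 no longer did and 12 changed direction. The 5 members past the criterion became 9 when the fit kept genes with 10 or more counts in each library, with library size scaling and with limma-voom, 8 when members needed a mean of 1 CPM and no minimum, 2 when they needed 100 counts in every library, and 4 to 10 with 1 library left out. RLE scaling gave 6, DESeq2 5 and all genes with 1 count 4. The count at an adjusted p under 0.05 was 1 in DESeq2. The median log2 fold change of the members was -0.065 with library size scaling, where all tested genes had -0.066, 0.077 for members with 100 counts in every library, and -0.0069 to 0.065 with 1 library left out. With 1 library left out, 137 to 142 members had genotypes without overlap, as 3 libraries give fewer chances of overlap. Slc19a2 (0.12) and Slc25a13 (0.016) were positive in limma-voom.

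With 1 library left out, the log2 fold changes that changed direction ranged from -0.16 to 0.82 for Slc15a4, -0.044 to 0.28 for Slc16a4, -0.42 to 1.20 for Slc18a2, -1.45 to 1.89 for Slc19a2, -1.12 to 1.12 for Slc25a13, -0.025 to 0.38 for Slc25a4, -0.45 to 0.10 for Slc25a5, -1.96 to 1.00 for Slc7a4 and -0.14 to 0.10 for Slc9a9. The fits with 1 library in a genotype assume that it varies like the other genotype. The cause of these changes was not tested. No paired analysis was possible because the sample labels give the genotypes only 1 replicate number in common. At 2 libraries per genotype, no member under 10 CPM with an estimate under 2-fold had an unadjusted p under 0.05.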
